A study of Homo sapiens with 4 samples.

Results

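The genes described here encode solute carriers, ATP-driven transporters, ATPase pumps and ion channels in AMO1, an established human multiple myeloma cell line. They were selected by name: every protein-coding gene of the deposited table whose symbol begins with SLC, ABCA, ABCB, ABCC, ABCG, ATP1, ATP2, ATP8, ATP10, KCN, CACN, SCN, CLCN, TRPC, TRPM, TRPV, AQP or P2RX, leaving out the scaffold gene SLC9A3R2. The rule found 37 of the 1232 genes in the table, and the release of GENCODE with the same coordinates holds 652 protein-coding genes of such names. The 37 made up 5.67% of these 652, and 5.10% of all 19969 annotated protein-coding genes were listed. Genes of the table all have p below 0.05 in the comparison the authors ran. A gene outside the table is therefore not described, and each of the 37 was already chosen for a difference.

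RNA sequencing compared 2 groups of AMO1 cells, each with 2 libraries. Control cells were transduced with lentivirus carrying the PCDH vector without an insert (empty vector, EV), and the second group carried PHF19 in that vector (PHF19 overexpression, PHF19_OE). PHF19 is a Polycomb-like protein that binds CpG-containing DNA and associates with the repressive complex PRC2. The labels do not say whether cells were clones or pools, nor whether each library had its own culture, and p-values therefore reflect only the spread between these libraries, which may be technical. The 4 values given for a gene follow the order EV replicate 1, EV replicate 2, PHF19_OE replicate 1, PHF19_OE replicate 2. PHF19 itself had normalized counts of 1842, 4506, 9670 and 8777, with groups apart, but at an adjusted p of 0.0897 in the authors' deposited table it did not pass the threshold of 0.05 used here. The PHF19_OE mean was 2.05-fold above EV replicate 2. Total reads were 35258920, 29461022, 23835805 and 28156519, and the 37 genes held 62999, 42122, 45231 and 64847 of them. Among plasma cell markers, CD38 fell, POU2AF1 and FCRL5 were listed without passing, and the other 9 of 12 were outside the table, so the cell type could be checked only in part. CD38 stood at 3228, 2138, 901 and 660.1 and POU2AF1 at 18511, 13367, 7486 and 7735. FCRL5 stood at 310, 38.1, 49.3 and 49.1, high in EV replicate 1 alone. In bulk RNA a lower share of a cell type and less RNA per cell cannot be told apart.

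Solute carriers move nutrients, ions and metabolites across membranes, using gradients of the solute or of a coupled ion. ABC transporters and P-type ATPases spend ATP to move their substrates, and ion channels form gated pores. Plasma cells secrete large amounts of antibody and depend on amino acid and sugar uptake and on the calcium held in the endoplasmic reticulum. ABC transporters, organic cation exporters of the MATE family and organic anion carriers of the SLCO family are also known for moving drugs.

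Because PHF19 recognises CpG-containing DNA, RefSeq promoter windows (build GRCh38.p14, 250 bases before to 50 after a transcript start) are shown for members that moved in opposite directions. The windows shown are examples, and members with the opposite pairing of direction and CpG content are named below. Capitals mark CpG dinucleotides. SLC12A8 (chr3:125211350-125211649, minus strand) and SLC2A5 (chr1:9069586-9069885, minus strand) were higher in PHF19_OE, and their windows hold 3 and 5 CpGs. SLC2A10 (chr20:46709399-46709698, plus strand) and ATP8A1 (chr4:42657056-42657355, minus strand) were lower, and their windows hold 31 and 36.
SLC12A8: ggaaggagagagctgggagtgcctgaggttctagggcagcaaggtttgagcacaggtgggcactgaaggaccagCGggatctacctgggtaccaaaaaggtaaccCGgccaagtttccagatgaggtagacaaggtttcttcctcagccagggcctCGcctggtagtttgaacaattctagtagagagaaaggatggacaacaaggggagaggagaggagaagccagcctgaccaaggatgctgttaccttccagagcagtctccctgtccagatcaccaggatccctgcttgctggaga
SLC2A5: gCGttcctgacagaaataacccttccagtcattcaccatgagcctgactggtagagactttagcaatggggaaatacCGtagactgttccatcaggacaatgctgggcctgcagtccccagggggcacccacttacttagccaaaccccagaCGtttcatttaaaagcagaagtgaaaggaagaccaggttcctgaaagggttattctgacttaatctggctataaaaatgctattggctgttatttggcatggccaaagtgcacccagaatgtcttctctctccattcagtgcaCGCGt
SLC2A10: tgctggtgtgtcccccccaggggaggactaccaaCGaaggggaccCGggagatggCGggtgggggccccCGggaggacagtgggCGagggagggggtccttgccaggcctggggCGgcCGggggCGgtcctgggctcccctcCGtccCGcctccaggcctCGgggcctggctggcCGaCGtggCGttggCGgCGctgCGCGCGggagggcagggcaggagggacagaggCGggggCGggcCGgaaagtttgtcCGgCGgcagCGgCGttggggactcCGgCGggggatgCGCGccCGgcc
ATP8A1: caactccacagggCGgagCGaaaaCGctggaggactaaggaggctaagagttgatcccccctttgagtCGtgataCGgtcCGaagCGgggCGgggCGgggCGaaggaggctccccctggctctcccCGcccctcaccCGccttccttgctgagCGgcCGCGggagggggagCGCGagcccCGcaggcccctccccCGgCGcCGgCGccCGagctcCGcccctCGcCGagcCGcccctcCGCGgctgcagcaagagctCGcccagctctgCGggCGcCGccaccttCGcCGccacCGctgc

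A window was matched by symbol for 26 of the 37 members (70.3%), and too few have one for a comparison of CpG content over the set, which is therefore void. Over all 35116 windows in the RefSeq table the median was 14 CpGs. Of the members past an adjusted p of 0.05, 11 had a window. ABCA12 (1 CpG), SLC27A5 (2), SLC12A8 and SLC2A5 rose with CpG-poor windows, whereas KCNH2 (39) and SLCO3A1 (41) rose with CpG-rich ones. SLC44A2 (25) and SLC30A1 (30), like SLC2A10 and ATP8A1, fell with CpG-rich windows, whereas SLC2A9 (3) fell with a CpG-poor one. The RefSeq start used lay 1465 bases from the deposited start of SLC12A8, 18843 from that of SLC2A5, 14666 from that of SLC2A9 and at most 421 from that of the other 8.

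Of the 37 genes, 10 rose and 7 fell, taking as the call an adjusted p below 0.05 as deposited by the authors. Over the 16881 genes that the authors adjusted, 0.663% were called higher and 1.07% lower. The number of members among those 16881 is not known, so these shares cannot be compared with 10 and 7 of 37. Within the table, 27.0% of the members were called higher and 18.9% lower, against 9.09% and 14.7% of all 1232 listed genes. Set against annotated genes instead, the 17 called members made up 2.61% of the 652 annotated, and the 252 called protein-coding genes 1.26% of 19969. Higher genes made up 45.9% of the members, against 36.4% of all listed genes. Measured as log2(normalized count + 1), the median difference was 2.09 among the 17 higher members (2.19 among all 448 higher listed genes). It was -3.06 among the 20 lower members (-1.80 among all 784 lower listed genes). When the counts were refitted with edgeR (quasi-likelihood) and adjusted over 16881 genes, 0 members passed, as did 0% of all 1066 genes kept by its low-count filter. An unadjusted p under 0.05 was found for 23 of the 34 members kept, against 49% of all genes kept. DESeq2 adjusted over the same number called 4 members higher and 7 lower, against 4.06% and 6.82% of all listed genes. Only 8 of the 17 members called by the authors were among them. Adjusted over the listed genes, DESeq2 called 10 members higher and 10 lower with the size factors of the authors (10.1% and 19.4% of all listed genes). With its own size factors it called 17 and 8 (31.7% and 8.85% of all listed genes), so the share of higher calls grew over the whole table. Every higher member (17 of 17) and 19 of 20 lower members had groups that did not overlap, where 99.6% of all higher and 85.3% of all lower listed genes did the same.

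**Figure D1:**
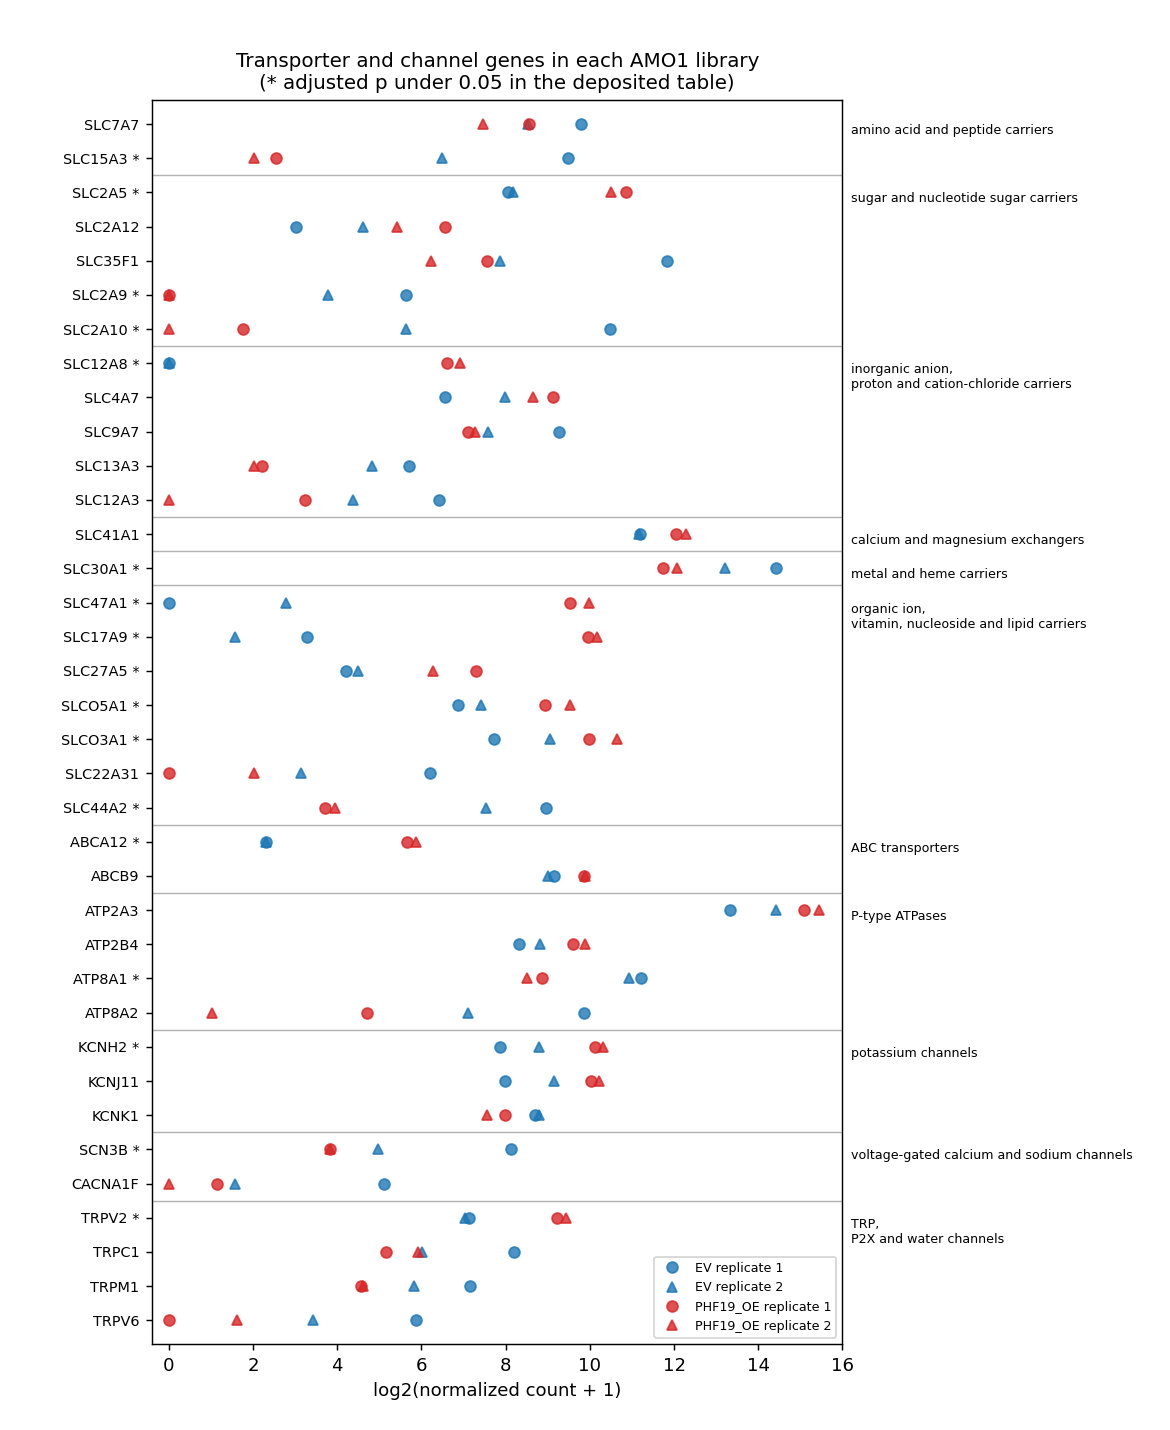
Normalized counts of 36 genes on a log2 scale after adding 1 (x axis), with 1 row per gene, sorted by family and by difference, and 1 point per library; asterisks mark members past an adjusted p of 0.05 as deposited. Red and blue points stand apart in 35 of 36 rows, the exception being SLC7A7, and the EV replicate 1 circle is the point farthest to the right in most rows where EV is higher.

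Organic ion, vitamin, nucleoside and lipid carriers gave the most calls: of 7 in the table (107 annotated), 5 rose and 1 fell. SLC17A9, the vesicular nucleotide transporter that loads ATP into vesicles (chromosome 20, 62952647 to 62969585, plus strand), had normalized counts of 8.71, 1.96, 985 and 1149. Both EV libraries were near 0, and the PHF19_OE libraries were high and close to each other. The mean rose 200-fold, from 5.33 ± 4.78 to 1067 ± 116 (SD, n = 2 each), 546-fold with EV replicate 1 left out and 122-fold with EV replicate 2 left out, with an adjusted p of 4.44e-29 in the authors' deposited table.

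SLC47A1 encodes MATE1, which exports organic cations and drugs in exchange for protons (chromosome 17, 19495385 to 19579034, plus strand). Its normalized counts were 0, 5.87, 739 and 1010.0, again absent or nearly so in EV cells and high in both PHF19_OE libraries. It rose 298-fold, from 2.93 ± 4.15 to 875 ± 192 (SD, n = 2 each), or 149-fold without EV replicate 1, at an adjusted p of 0.00114 in the authors' deposited table.

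Both listed carriers of the SLCO family, which take up organic anions, rose more modestly from a measurable level. SLCO5A1, a family member with little-known substrates, stood at 115, 170.1, 489 and 733 normalized counts. It rose 4.29-fold, from 142 ± 39.1 to 611 ± 172 (SD, n = 2 each). SLCO3A1, which carries prostaglandins and thyroid hormone, stood at 211, 527, 1015 and 1591, and the ratio within the EV pair was larger than within the PHF19_OE pair. Its rise was 3.53-fold, from 369 ± 224 to 1303 ± 407 (SD, n = 2 each), 2.47-fold with EV replicate 1 left out and 6.19-fold with EV replicate 2 left out. SLC27A5, a liver enzyme and carrier that activates bile and very-long-chain fatty acids, stood at 17.4, 21.5, 156 and 76.8. The PHF19_OE libraries of SLC27A5 differed 2.04-fold from each other and both lay above EV, a 5.98-fold rise of means (3.94-fold without PHF19_OE replicate 1). Adjusted p-values in the authors' deposited table were 0.00253 for SLCO5A1, 0.0486 for SLC27A5 and 0.0498 for SLCO3A1, and the values of SLC27A5 and SLCO3A1 lay just inside the threshold. KCNJ11, outside the threshold, had 0.156.

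The gene of this family that fell was SLC44A2, a choline transporter-like protein of the plasma membrane and mitochondria (chromosome 19, 10602457 to 10644559, plus strand). Its normalized counts were 497, 183, 12.0 and 14.3, so that both EV libraries were far above both PHF19_OE libraries although they differed from each other. The mean fell 25.8-fold, from 340.1 ± 222 to 13.2 ± 1.63 (SD, n = 2 each), 13.9-fold without EV replicate 1, with an adjusted p of 2.23e-08 in the authors' deposited table. SLC22A31, a relative of the organic cation and anion carriers, was listed and did not pass. It had 99 counts in the EV libraries and 3 in the PHF19_OE libraries, which is 26.1-fold (95% counting interval 8.68 to 129), 4.72-fold (1.13 to 27.6) without EV replicate 1 and 43.5-fold (14.4 to 215) without EV replicate 2.

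**Figure D2:**
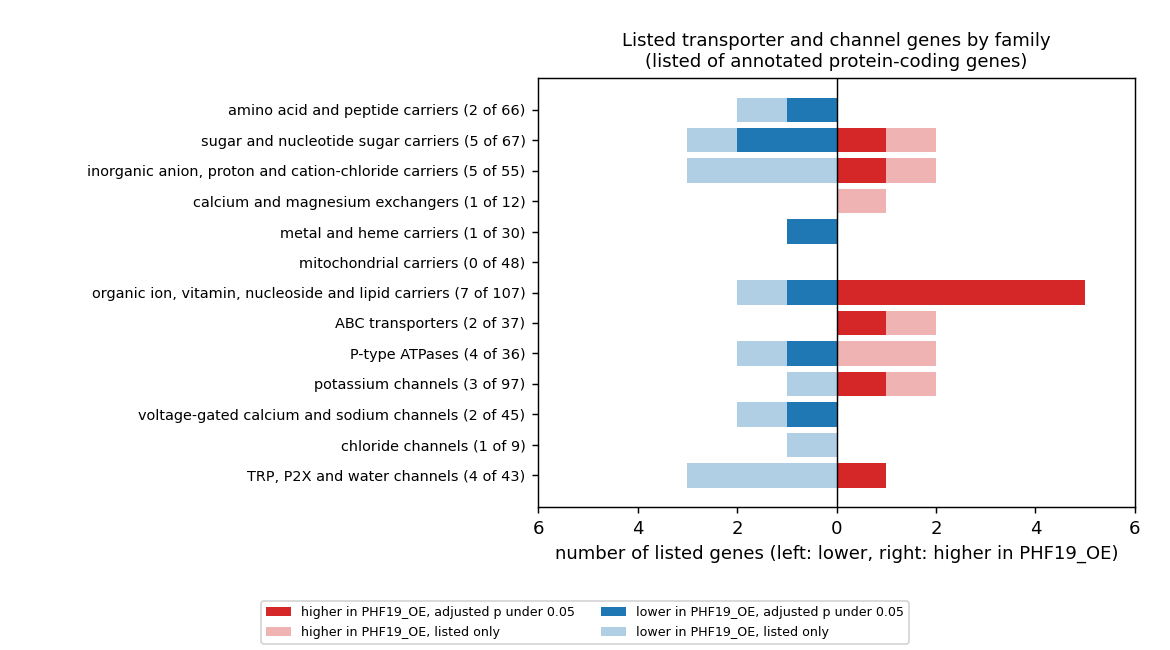
Numbers of listed genes per transporter or channel family (x axis), lower in PHF19_OE to the left and higher to the right; dark bars passed an adjusted p of 0.05 as deposited and pale bars were listed without passing. The 5 higher organic ion, vitamin, nucleoside and lipid carriers form the longest dark bar. No mitochondrial carrier was listed out of 48 annotated, where 5.10% of all annotated protein-coding genes were listed.

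Facilitative hexose carriers of the SLC2A family moved in both directions. Of 15 annotated symbols beginning with SLC2A, 4 were listed, 1 rose, 2 fell and 1 did not pass. SLC2A5, the fructose transporter GLUT5 (chromosome 1, 9035107 to 9088478, minus strand), had normalized counts of 265, 286, 1857 and 1451. The EV libraries nearly coincided and the PHF19_OE libraries stood well above them. It rose 6.0-fold, from 275 ± 14.3 to 1654 ± 287 (SD, n = 2 each; adjusted p = 6.39e-08 in the authors' deposited table).

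SLC2A10, which encodes the carrier GLUT10 (chromosome 20, 46709487 to 46736347, plus strand), had normalized counts of 1420.2, 48.9, 2.40 and 0. EV replicate 1 was 29.05-fold above EV replicate 2, and both exceeded the PHF19_OE libraries, which held 2 reads between them. The ratio of EV to PHF19_OE counts was 730 (95% counting interval 202 to 6029), 44.2 (11.6 to 375) without EV replicate 1 and 1285 (355 to 10618) without EV replicate 2. SLC2A9, the urate and hexose carrier GLUT9, stood at 48.3, 12.7, 0 and 0 normalized counts and was at least 19.5-fold lower in PHF19_OE when 3 counts are taken as the limit for the whole group (at least 7.67-fold without EV replicate 1). Adjusted p-values in the authors' deposited table were 0.0264 for SLC2A10 and 0.0399 for SLC2A9.

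SLC2A12, the glucose carrier GLUT12, was higher without passing, at 7.13, 23.5, 93.7 and 42.0 normalized counts. The 1 listed relative of the nucleotide sugar carriers, SLC35F1, did not pass either. It stood at 3661, 232, 187 and 73.7, where EV replicate 1 alone was high. Its 14.9-fold difference of means became 1.77-fold with EV replicate 1 left out and 28.0-fold with EV replicate 2 left out.

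Among 66 annotated amino acid and peptide carriers, 2 were listed, both lower, and 1 fell. SLC15A3, a proton-coupled carrier of histidine and peptides in lysosomes (chromosome 11, 60937084 to 60952530, minus strand), stood at 718, 88, 4.81 and 3.07 normalized counts. PHF19_OE libraries held 4 and 3 reads of it, and EV replicate 1 was 8.15-fold above EV replicate 2. It fell 102-fold, from 403 ± 445 to 3.94 ± 1.23 (SD, n = 2 each), 22.3-fold with EV replicate 1 left out and 182-fold with EV replicate 2 left out, at an adjusted p of 2.13e-08 in the authors' deposited table. Lysosomal SLC15A3 is known from myeloid and dendritic cells, and the myeloid integrin gene ITGAM moved the same way, at 94.3, 15.6, 0 and 0. Of 9 myeloid markers ITGAM was the sole one listed, and its part in the result was not tested. SLC7A7, a light chain of the exchanger for cationic and neutral amino acids, was the 1 member whose groups overlapped, at 878, 367, 373 and 176.

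SLC30A1 was the sole listed gene of 30 annotated metal and heme carriers, and it is the zinc exporter ZnT1 of the plasma membrane (chromosome 1, 211571568 to 211578742, minus strand). Its normalized counts were 22134, 9473, 3429 and 4311. EV replicate 1 was 2.34-fold above EV replicate 2, and both PHF19_OE libraries were lower than either. It fell 4.08-fold, from 15804 ± 8953 to 3870.4 ± 624 (SD, n = 2 each), 2.45-fold without EV replicate 1, at an adjusted p of 0.00376 in the authors' deposited table.

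SLC30A1 is a known target of the zinc-sensing factor MTF1, which binds metal response elements. Its RefSeq window (chr1:211579112-211579411, minus strand, GRCh38.p14) is therefore shown with the cores TGCACNC and TGCGCNC, searched on both strands, in capitals.
SLC30A1: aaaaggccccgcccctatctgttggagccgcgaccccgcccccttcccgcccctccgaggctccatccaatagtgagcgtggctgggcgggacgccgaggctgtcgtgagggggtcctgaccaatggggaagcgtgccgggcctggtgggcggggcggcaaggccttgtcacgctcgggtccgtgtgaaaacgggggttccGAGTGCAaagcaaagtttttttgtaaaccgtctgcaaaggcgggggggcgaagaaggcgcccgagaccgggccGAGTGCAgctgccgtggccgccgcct

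The window holds 2 non-overlapping cores, which begin at positions -49 and 25 relative to the RefSeq start. At least 1 core was in 29.6% of all windows of the table and at least 2 in 8.60%, so a match describes letters and shows no binding. SLC41A1, a magnesium carrier and the 1 listed calcium or magnesium exchanger of 12 annotated, did not pass. Its normalized counts were 2351, 2312, 4250.2 and 4961, a 1.98-fold difference with both groups tight.

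Carriers of inorganic ions were split, with 5 of 55 annotated in the table and 1 past the threshold. SLC12A8, a member of the cation-chloride cotransporter family that has been described in mouse as a carrier of nicotinamide mononucleotide (chromosome 3, 125082636 to 125212864, minus strand), had normalized counts of 0, 0, 96.1 and 119.7. No EV read was counted, against 80 and 117 PHF19_OE reads. It was at least 82.9-fold higher in PHF19_OE when 3 counts are taken as the limit for both EV libraries together (adjusted p = 5.23e-06 in the authors' deposited table).

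The other 4 did not pass. SLC12A3, the sodium-chloride cotransporter of the kidney, stood at 84.0, 19.6, 8.41 and 0 normalized counts. SLC13A3, a sodium-coupled dicarboxylate carrier, stood at 51.5, 27.4, 3.60 and 3.07, tight in PHF19_OE and 11.8-fold lower there. SLC9A7, a sodium-proton exchanger of the Golgi, stood at 619, 191, 136 and 155, where the distance from EV replicate 2 alone was 1.31-fold. SLC4A7, a sodium bicarbonate cotransporter that raises intracellular pH, was higher in PHF19_OE, at 92.7, 250.3, 553 and 398.

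Both listed ABC transporters (37 annotated) were higher in PHF19_OE and 1 rose. ABCA12, a lipid transporter of the epidermal barrier, stood at 3.96, 3.91, 49.3 and 57.3 normalized counts. These came from 5, 4, 41 and 56 reads, so the EV libraries are too low for their closeness to mean precision. ABCA12 rose 13.5-fold, from 3.94 ± 0.0348 to 53.3 ± 5.69 (SD, n = 2 each; adjusted p = 0.0333 in the authors' deposited table), to a level that remained low. The EV SD leaves out counting error. ABCB9, a lysosomal peptide transporter related to the TAP proteins, stood at 564, 509, 929 and 937 and did not pass. The drug transporter genes of the ABCB, ABCC and ABCG names other than ABCB9 were outside the table.

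Of 4 listed P-type ATPases (36 annotated), 1 fell. The listed flippases, which turn aminophospholipids toward the cytosolic leaflet, were both lower: ATP8A1 fell and ATP8A2 did not pass, and no other ATP8A symbol is annotated. ATP8A1 (chromosome 4, 42408373 to 42657105, minus strand) had normalized counts of 2379, 1948, 464 and 360.2. It fell 5.25-fold, from 2164 ± 305 to 412 ± 73.3 (SD, n = 2 each; adjusted p = 9.46e-07 in the authors' deposited table), and its EV libraries differed 1.22-fold, far less than the groups. ATP8A2 stood at 935, 136, 25.2 and 1.02, spread widely within each group.

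Calcium pumps were both higher in PHF19_OE, and neither passed. ATP2A3 encodes SERCA3, which loads calcium into the endoplasmic reticulum, and stood at 10379, 22133, 34646 and 44344 normalized counts. The groups did not overlap, but the EV libraries differed 2.13-fold and the difference of means was 2.43-fold (16256 ± 8312 against 39495 ± 6858; SD, n = 2 each; adjusted p = 0.211 in the authors' deposited table). ATP2B4, the plasma membrane calcium pump PMCA4, stood at 319, 451, 779 and 952, a 2.25-fold difference.

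Of 97 annotated potassium channel genes, 3 were listed and 1 rose. KCNH2, which encodes the voltage-gated channel hERG (chromosome 7, 150944961 to 150978315, minus strand), had normalized counts of 231, 445, 1107 and 1271. It rose 3.52-fold, from 338 ± 151 to 1189 ± 116 (SD, n = 2 each; adjusted p = 0.0121 in the authors' deposited table), 2.67-fold with EV replicate 1 left out and 5.14-fold with EV replicate 2 left out. KCNJ11, the pore subunit Kir6.2 of the ATP-sensitive potassium channel, followed the same order of libraries without passing, at 250.3, 562, 1038 and 1187. KCNK1, the background potassium channel TWIK1, was lower without passing, at 412, 444, 254 and 187, with EV libraries alike.

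Both listed genes of voltage-gated sodium and calcium channels (of 45 annotated symbols beginning with CACN or SCN) were lower, and 1 fell. SCN3B, an accessory beta subunit of voltage-gated sodium channels, stood at 279.6, 30.3, 13.2 and 13.3 normalized counts. It fell 11.7-fold, from 155 ± 176 to 13.3 ± 0.0605 (SD, n = 2 each; adjusted p = 0.0315 in the authors' deposited table), but only 2.29-fold without EV replicate 1 (21.1-fold without EV replicate 2). CACNA1F, a calcium channel subunit of photoreceptors, had 42 and 2 reads in EV and 1 and 0 in PHF19_OE, and without EV replicate 1 the counting interval of its ratio, 0.184 to 209, spanned both directions.

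TRP channels, which conduct calcium and sodium, gave 1 rise and 3 lower genes that did not pass, out of 43 annotated TRP, P2X and water channels. TRPV2, a calcium-permeable channel of leukocytes (chromosome 17, 16415542 to 16437003, plus strand), had normalized counts of 139, 131, 598 and 695. The EV libraries nearly coincided and the rise was 4.78-fold, from 135 ± 5.93 to 647 ± 68.2 (SD, n = 2 each; adjusted p = 5.76e-05 in the authors' deposited table). TRPC1, a subunit of receptor-operated channels, stood at 292, 63.6, 34.8 and 59.4, so that EV replicate 1 alone was high. TRPM1, a channel of melanocytes and retina, stood at 142, 55.7, 22.8 and 23.5, and TRPV6, an epithelial calcium channel, at 57.8, 9.78, 0 and 2.05. No aquaporin or P2X receptor was listed, of 13 AQP and 8 P2RX symbols annotated.

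Compared per length, in FPKM (reads scaled by gene length and library size), ATP2A3 reached the highest group mean of the 37 genes, 199 in PHF19_OE, with libraries at 53.9, 111, 175 and 223. SLC30A1 came next with 145, 60.1, 21.9 and 27.3, so that in EV replicate 1 it exceeded ATP2A3 and in PHF19_OE it lay far below. SLC41A1 followed at 12.6 to 27.1 over the 4 libraries. Of the 37 genes 21 had a mean over 1 FPKM in EV and 17 in PHF19_OE. In the group where a member was lower, the mean was under 0.1 FPKM for 12 of the 20 lower and 5 of the 17 higher members. SLC17A9 and SLC47A1 reached 6.73 and 5.32 FPKM in PHF19_OE from 0.0344 and 0.0178 in EV, close to KCNH2 (7.04) and TRPV2 (6.60), whereas SLC12A8 reached 0.672 and ABCA12 0.197.

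**Figure D3:**
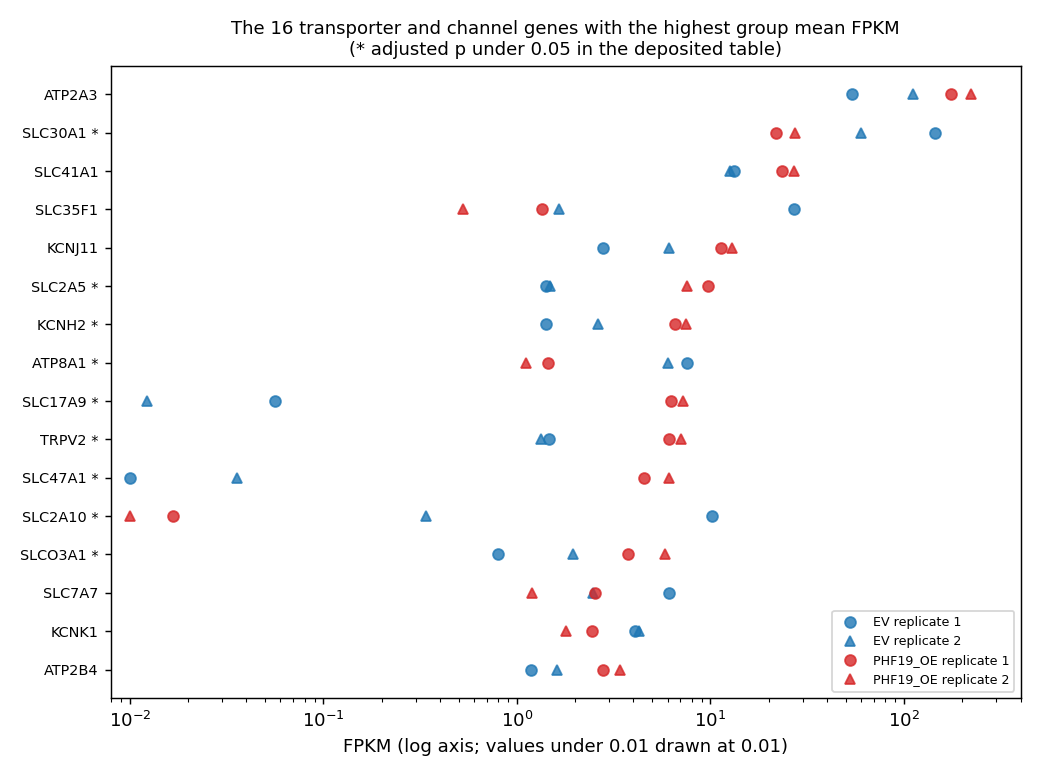
FPKM in each library (log axis) of the 16 genes with the highest group mean; values under 0.01 are drawn at 0.01 and asterisks mark members past an adjusted p of 0.05 as deposited. ATP2A3 lies between 53.9 and 223, and SLC17A9, SLC47A1 and SLC2A10 span the widest distances between groups.

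The lower members differed from EV replicate 1 more than from EV replicate 2. EV replicate 1 was over 2-fold above EV replicate 2 in 17 of the 20 lower members (85%), against 460 of all 784 lower listed genes (58.7%). The exceptions were ATP8A1, SLC13A3 and KCNK1. Measured as log2(normalized count + 1), the median difference of PHF19_OE from EV replicate 1 was -4.66 in the lower members, and from EV replicate 2 it was -2.19 (-2.56 and -1.14 over all lower listed genes). Among the 17 higher members EV replicate 2 was over 2-fold above EV replicate 1 in 6 (35.3%), against 33.5% of all 448 higher listed genes. SLC17A9 was the reverse, as were 9.15% of all higher listed genes. Median differences of the higher members from EV replicate 1 and EV replicate 2 were 2.37 and 1.41 (2.49 and 1.99 over all higher listed genes). All 17 called members lay over 2-fold from each EV library, as did 8 of the other 20. The calls rest on these same EV libraries, and the share over all listed genes was not counted. EV replicate 1 also held 2.45-fold less PHF19 than EV replicate 2. What set EV replicate 1 apart was not tested.

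**Figure D4:**
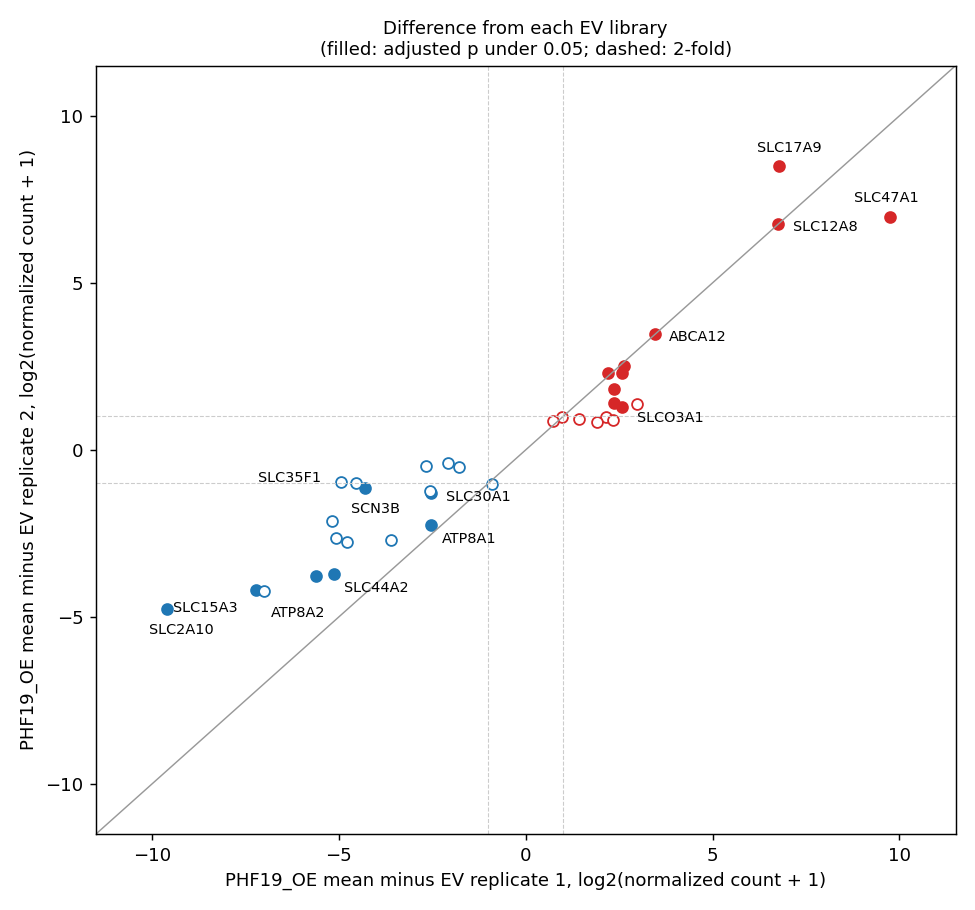
Difference of the PHF19_OE mean from EV replicate 1 (x axis) and from EV replicate 2 (y axis) for 36 genes, both in log2 of the normalized count plus 1, with the line of equality; filled points passed an adjusted p of 0.05 and dashed lines mark 2-fold. Most blue points (lower genes) lie above the line, nearer to 0 on the EV replicate 2 axis, while ABCA12, SLC12A8 and ATP8A1 lie close to it.

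The 37 genes lay on 17 chromosomes, and 1 pair lay within 1 Mb. SLC13A3 and SLC2A10 are neighbours on chromosome 20, with 25019 bases between them, and both were lower in PHF19_OE, SLC2A10 past the threshold. Exons of 13 members overlap exons of another annotated gene, on the opposite strand in 11, and the sources used here do not give whether counting used strand. Opposite-strand overlaps cover 38.9% of the exonic bases of SLC2A12 (TBPL1), 14.1% of SLC27A5 (ZNF446) and 8.56% of TRPV2 (AC093484.2). ABCB9 shares 20.7% with AC026362.1, 12.5% with OGFOD2 and 12.0% with ARL6IP4. Reads of these partners cannot be told apart from the member's without strand.

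Transport genes outside the name rule were also checked. Of 153 other channel genes 16 were listed, 13 lower and 3 higher, and 1 passed: the GABA receptor subunit gene GABRA3 fell from 68.1 and 7.82 normalized counts in the EV libraries to 0 in both PHF19_OE libraries. It was at least 24.8-fold lower, at least 4.72-fold without EV replicate 1 and at least 41.1-fold without EV replicate 2. ITPR3 and RYR2, which release calcium from the endoplasmic reticulum, were higher and ITPR1 lower, none past the threshold. ITPR3 stood at 3446, 5824, 9446 and 9279, RYR2 at 73.7, 29.3, 392 and 91.1, and ITPR1 at 1577, 128, 222 and 140.2. Of 88 other transporters and pumps 4 were listed and 2 rose. SVOP, a synaptic vesicle protein related to transporters, had 3 reads in EV and 124 in PHF19_OE, a ratio of 52.2 (95% counting interval 17.5 to 257). TUSC3, linked to magnesium transport and protein glycosylation, had 0 reads in EV and 179 in PHF19_OE and was at least 75.4-fold higher. Of 52 regulators of transport, KCTD12 alone was listed and did not pass.

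Few markers of other cell types were in the table. Of 12 T and NK cell markers CD3E and TRAC were listed, with summed normalized counts of 85.5, 40.1, 2.40 and 5.12, and neither passed. Of 9 stromal, endothelial and epithelial markers CDH1 was listed, at 99.0, 9.78, 1.20 and 0, and it fell. HBB, the sole listed erythroid marker of 5, rose, at 58.6, 24.4, 233 and 180.1. Of 8 B cell markers CD79A fell and CD79B rose. The part of these markers in the transporter results was not tested.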

How the data were processed

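Libraries of AMO1 RNA were made with a SMARTER mRNA kit, per the labels' protocols. Per the submitters' processing notes, hg38 was the build; not given in the sources used here are aligner, counter, use of strand and statistical test. The deposited table gives raw read counts per gene. It also holds normalized counts, a signal scale on which the authors divided counts by 1 size factor per library (1.26, 1.02, 0.832 and 0.977, from the deposited values). FPKM values were computed by the authors on the deposited gene lengths and return the library totals. The log2 fold changes, p-values and adjusted p-values are the authors' and were deposited with the table; Benjamini-Hochberg adjustment over 16881 genes returned 1208 of its adjusted p-values (relative tolerance 1e-06), while 24 more equal 1 (none a member).

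Because the table holds only genes with p under 0.05, the authors' adjusted p is the call. The counts were refitted on all 1232 listed genes with edgeR 4.0.16 (quasi-likelihood, filterByExpr) and DESeq2 1.42.0 in R 4.3.3, on the samples that selected them, after both were tested on simulated counts. Log2 differences use a pseudocount of 1, which understates changes of low genes. A group at 0 counts was set against 3 counts over the group, and 1 to 3 counts give a ratio with an exact 95% interval; both cover counting error only. No exact permutation test was run, since with 2 libraries against 2 the smallest p it allows is 0.333. Library numbers are shared between groups but no label pairs them. The members, families and lists were chosen with earlier results of these data known. One member enters the counts but is not reported here by name or value, nor drawn by gene; every other member is named. The rule gives all 4 values for members past 0.05 and for the one with the highest mean normalized count in each family, and names other transport genes past 0.05. The values of the other members, ITPR1, ITPR3, RYR2 and KCTD12 were added after they were seen. Overlaps, annotated genes and coordinates are from GENCODE release 29, whose coordinates equal the deposited ones for all 37 members.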

Additional observations from a re-analysis of the deposited data

How the results depend on the processing

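No member that a refit of the counts tested (33 to 37 of 37, by refit) changed sign in it. All 222 recomputed log2 differences of single members (pseudocount of 5, CPM with a pseudocount of 1, each library left out) kept their sign. For the 36 members whose groups did not overlap, that outcome was fixed in advance. Kept signs are no independent support, since the members were listed for p below 0.05 in these same libraries. Of the 222, 18 moved by more than the replicate spread, 14 under CPM and 4 under the pseudocount of 5. Leaving out 1 library of a pair always shifts a difference by less than that spread, so those values could not count as moved. SLC35F1, for example, went from -2.96 to -0.97 without EV replicate 1 and to -4.95 without EV replicate 2. SLC12A8 went from 6.76 to 2.24 and SLC2A9 from -4.70 to -0.99 under CPM. CPM values are far smaller than normalized counts, so the pseudocount of 1 weighs more there and shrinks differences of low genes. The number called did change. Against 10 higher and 7 lower members in the authors' table, edgeR adjusted over 16881 genes called 0 and 0. Adjusted over the listed genes it called 6 and 4, against 77 and 72 of all 1066 genes kept. With no low-count filter it called 4 and 3, against 25 and 30 of all 1232. DESeq2 adjusted over 16881 genes, added after the data were seen, called 4 higher and 7 lower (50 and 84 of all 1232 genes). Among those members were 8 of the 17 called in the authors' table. Of the lower members called by the authors, SLC30A1, SCN3B and SLC2A9 were not called in that fit, whereas ATP8A2 and SLC35F1 were. Of the higher ones, TRPV2, SLCO5A1, ABCA12, KCNH2, SLC27A5 and SLCO3A1 were not called in it. With its own size factors, which shifted the median of the listed genes by 1.03 on the log2 scale (TMM by 0.61), DESeq2 called 17 higher and 8 lower. Over all 1232 genes that fit called 390 and 109. Leaving out 1 library in edgeR, adjusted over the listed genes, gave 3 to 17 higher and 1 to 19 lower: 16 and 8 without EV replicate 1, 17 and 19 without EV replicate 2, 3 and 2 without PHF19_OE replicate 1, and 3 and 1 without PHF19_OE replicate 2. Over all genes tested these fits called 297 and 306 of 1116, 369 and 724 of 1224, 17 and 18 of 1176, and 17 and 11 of 1186, so the swings were those of the whole table. The lone library is then assumed to vary like the other group. The causes were not tested. With the replicate number as a replicate block, edgeR called 8 higher and 9 lower, against 125 and 172 of all 1066 genes tested. Deviations of same-numbered libraries correlated at 0.208 over the 1232 genes, and the libraries share only a number. The median difference of the members was -1.14, against -1.17 over all listed genes. Higher and lower members are mixed in that median, so it describes neither. It ranged from -0.47 without EV replicate 1 to -1.77 without EV replicate 2. On each of the 3 scales 36 members had groups that did not overlap. Among the 17 called members the smallest difference of means was 3.52-fold (KCNH2).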
